A study of Tursiops truncatus with 17 samples.

Results

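S100A12, S100A9, CSF3R and MMP9 are 4 genes best known from neutrophils, the granulocytes that circulate in blood and enter tissue early in inflammation. They were picked by name from the 21265 genes measured, because they were among the transcripts lower in the bloom season in an earlier look at the same libraries. Each name matched 1 row. The cerebral cortex of 17 bottlenose dolphins (Tursiops truncatus) was profiled by messenger RNA sequencing, 9 collected in a bloom season and 8 in a non-bloom season. All animals are labelled wild type, the tissue was frozen necropsy material, and each library came from its own dolphin. Libraries are numbered here within their season, by order of deposition. Sex, age, collection date and batch are not labelled, so no within-batch value is given, and any batch aligned with season cannot be told apart from season itself.

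Neutrophils mature in the bone marrow under granulocyte colony-stimulating factor, whose receptor is CSF3R. Their cytosol is rich in small calcium-binding S100 proteins: S100A9, which pairs with S100A8 to form calprotectin, and S100A12, a ligand of the receptor AGER. MMP9 is a gelatin-degrading metalloproteinase that neutrophils store in granules and that can open the basement membrane of vessels. None of the 4 marks neutrophils alone, since monocytes also make S100A9 and S100A12, and MMP9 is made by several cell types of the brain. In a healthy brain neutrophils stay mostly inside the vessels. In bulk tissue, fewer cells of a type and less RNA per cell cannot be told apart.

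The libraries held 7680050 to 12572653 reads in the bloom season and 12346713 to 15635292 in the non-bloom season. Transcripts of the mitochondrial genome took 1.47% to 77.2% of the reads in bloom libraries and 9.68% to 22.1% in non-bloom libraries, with the highest shares in bloom 9, 5 and 6. Levels are the deposited normalised values, which are a gene's reads relative to the library total (CPM), scaled between libraries. Differences use log2(value + 1), a scale on which the change of low genes is understated. A level that rests on 3 reads, taken here as the floor of counting error, was 0.183 to 1.71 in bloom libraries and 0.158 to 0.238 in non-bloom libraries.

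S100A12 lies on scaffold_113631 from 49987 to 50731 (ENSTTRG00000000015), in the files' coordinates; their build is not named in the labels or headers. In bloom libraries 1 to 9 its levels were 6.75, 0.858, 5.79, 0.0672, 0.398, 4.60, 0.873, 0.527 and 0.571. In non-bloom libraries 1 to 8 they were 17.3, 9.84, 48.0, 5.68, 25.9, 9.81, 112 and 4.82. Bloom 1, 3 and 6 formed a high set of their own, and the other 6 bloom libraries all lay under 1. Of the bloom libraries 7 lay below every non-bloom library, and 6 of the 8 non-bloom libraries lay above every bloom library. S100A12 averaged 2.27 ± 2.65 in bloom and 29.2 ± 36.4 in non-bloom dolphins (SD, n = 9 and 8). The medians were 0.858 and 13.5. The log2 change, bloom minus non-bloom, was -2.87 (SE 0.57), given as a description because the gene was picked on this contrast.

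S100A9, a partner in calprotectin, lies on the same scaffold from 62166 to 64373 (ENSTTRG00000000016). Its levels in bloom libraries 1 to 9 were 4.63, 2.05, 5.94, 0, 0.199, 7.27, 0.218, 0.0658 and 0.571. In non-bloom libraries 1 to 8 they were 7.23, 6.10, 27.0, 2.56, 19.7, 5.67, 82.1 and 3.06. The seasons overlapped more than for S100A12: 6 bloom libraries lay below every non-bloom library, and 3 non-bloom libraries (3, 5 and 7) lay above every bloom library. S100A9 averaged 2.33 ± 2.86 in bloom and 19.2 ± 26.9 in non-bloom dolphins (SD, n = 9 and 8), with medians of 0.571 and 6.67 and a log2 change of -2.25 (SE 0.62). In bloom 4, 5, 7, 8 and 9 its level rested on 3 reads or fewer.

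CSF3R, the receptor that drives neutrophil production and survival, lies on scaffold_102357 from 141273 to 151542 (ENSTTRG00000002344). In bloom libraries 1 to 9 its levels were 0.852, 1.85, 0.587, 0, 0.398, 1.21, 0, 0 and 0. In non-bloom libraries 1 to 8 they were 1.75, 1.01, 7.06, 0.998, 0.528, 2.04, 14.8 and 2.09. No read was counted in bloom 4, 7, 8 and 9, and every non-bloom library had at least 10 reads. CSF3R averaged 0.544 ± 0.657 in bloom and 3.78 ± 4.89 in non-bloom dolphins (SD, n = 9 and 8), with medians of 0.398 and 1.89 and a log2 change of -1.27 (SE 0.39).

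MMP9, the gelatinase, lies on scaffold_96259 from 65202 to 71241 (ENSTTRG00000012110). In bloom libraries 1 to 9 its levels were 0.852, 0.264, 1.03, 0, 0, 1.21, 0, 0.132 and 0. In non-bloom libraries 1 to 8 they were 3.34, 1.94, 11.4, 0.624, 6.49, 0.828, 37.4 and 0.911. The bloom libraries with the most MMP9 were again 6, 3 and 1, and all 3 lay above the lowest non-bloom library. MMP9 averaged 0.387 ± 0.498 in bloom and 7.86 ± 12.5 in non-bloom dolphins (SD, n = 9 and 8), with medians of 0.132 and 2.64 and a log2 change of -1.85 (SE 0.51).

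**Figure D1:**
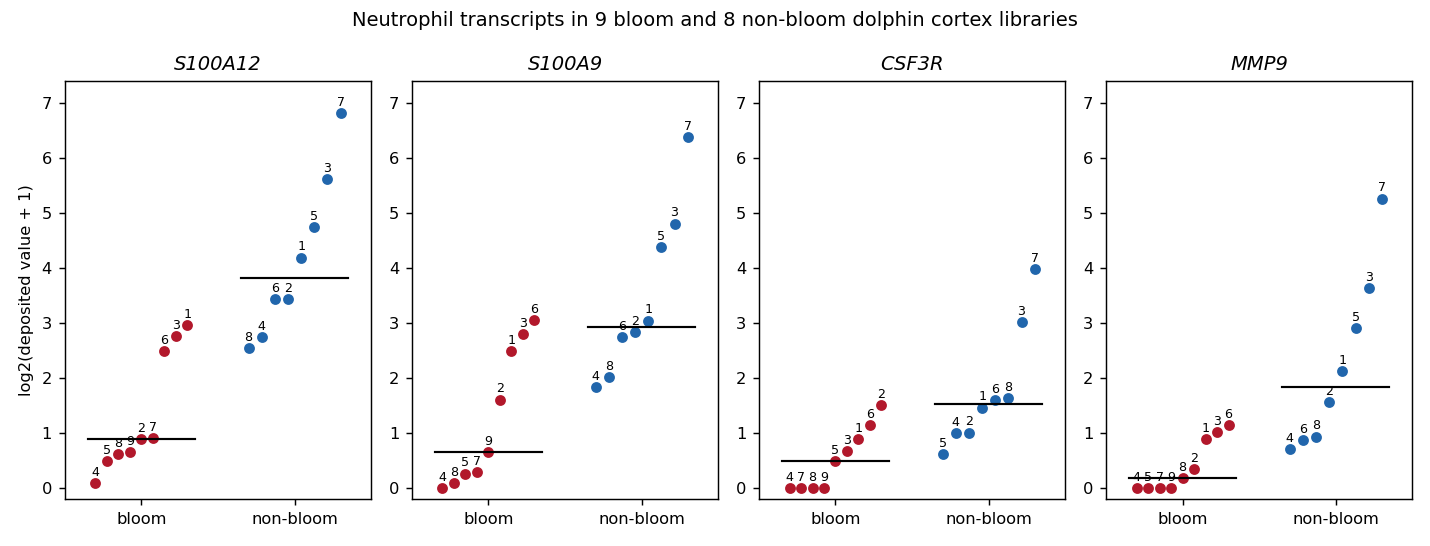
Level of each of the 4 genes by season, on the log2(deposited value + 1) scale; each point is 1 library with its number within the season, and the line is the group median. Non-bloom 7 is the highest and non-bloom 3 the next highest library in all 4 panels, and bloom 4 is lowest, alone or tied, in each.

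The non-bloom means were carried by 2 dolphins. Non-bloom 7 held the highest and non-bloom 3 the next highest level of all 17 libraries for each of the 4 genes, and together they held 68.6% of the summed non-bloom level of S100A12, 71.1% of S100A9, 72.2% of CSF3R and 77.5% of MMP9. Without them the non-bloom means were 12.2 ± 8.00 for S100A12, 7.39 ± 6.31 for S100A9, 1.40 ± 0.645 for CSF3R and 2.35 ± 2.26 for MMP9 (SD, n = 6). All 4 of these stayed above the bloom means, and the log2 changes were then -2.20 (SE 0.48), -1.56 (SE 0.54), -0.70 (SE 0.26) and -1.12 (SE 0.32) in the same order. These 2 libraries were set aside for their values of these genes, so the smaller differences are a description too.

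Of the 13548 genes tested over both seasons, 9.16% were called by limma with a Benjamini-Hochberg adjusted p under 0.05 over all genes, 4.69% lower and 4.47% higher in the bloom season. All 4 neutrophil genes passed the filter on low values, and 3 of the 4 were called lower, all but CSF3R; nothing is read from this count, because the genes were picked on the contrast. edgeR's quasi-likelihood test on the recovered reads called all 4 lower, where it called 8.28% of all genes, 2.19% lower and 6.09% higher. DESeq2 on the same reads also called all 4 lower, where it called 23.4% of all genes, 14.4% higher and 9.04% lower. Leaving out 1 library at a time, S100A12 was called in 17 of 17 fits, S100A9 in 6, MMP9 in 6 and CSF3R in 3. Over those fits 61 to 2895 of all genes were called. These calls, and those of the other tests and settings given here, rest on the contrast used for the choice, so nothing is read from them either. Without non-bloom 3 and 7 none of the 4 was called by limma, where 0.388% of all genes were called, 0.0219% lower and 0.366% higher. Without bloom 5, 6 and 9, the libraries richest in mitochondrial reads, S100A12 alone was called, where 2.34% of all genes were called, 0.659% lower and 1.68% higher.

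S100A12, S100A9 and MMP9 moved together from dolphin to dolphin within a season. They were chosen on the season contrast rather than on this measure, but non-bloom 3 and 7 weigh in both. Among the 8 non-bloom dolphins S100A12 and S100A9 had Pearson's r = 0.987 (two-sided exact permutation test, adjusted p = 0.00223) and Spearman's rho = 0.976 (exact permutation, adjusted p = 0.0119). S100A12 and MMP9 had r = 0.983 (exact permutation, adjusted p = 0.00347) and rho = 0.929 (exact permutation, adjusted p = 0.0446). For S100A9 and MMP9 r was 0.983 (exact permutation, adjusted p = 0.00223) and rho 0.976 (exact permutation, adjusted p = 0.0119). Without non-bloom 7 and 3, the libraries farthest from the median, r was still 0.951, 0.929 and 0.929 for these pairs. The p-values include both libraries. All values are on the log2(value + 1) scale, the points share each library's scaling, and p-values were adjusted over 60 relations.

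In the bloom season S100A9 and MMP9 had r = 0.965 over 9 dolphins (exact permutation, adjusted p = 0.00694) and rho = 0.827 (exact permutation, adjusted p = 0.114), and r = 0.916 without bloom 6 and 3. In bloom 4, 5, 7, 8 and 9 both genes rested on 3 reads or fewer, so most of these points lie at the floor. Without bloom 5, 6 and 9 the Pearson correlation of this pair missed the threshold over 6 dolphins (exact permutation, adjusted p = 0.0667). The MMP9 values of those 6 fell into separate clusters, with bloom 1 and 3 above the rest, so its coefficient is not given. The bloom values of S100A12 fell into separate clusters, with bloom 1, 3 and 6 above the rest, so no coefficient is given for its pairs there. Bloom 1, 3 and 6 were also the libraries with the most S100A9 and the most MMP9 of their season. Their summed level of 5 erythroid genes was 10.4, 73.5 and 1013, while the bloom libraries as a whole spanned 10.4 to 2456, and their part in the result was not tested.

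CSF3R followed another pattern. Its r with the other 3 genes among non-bloom dolphins was 0.765, 0.745 and 0.767 for S100A12, S100A9 and MMP9 (exact permutation, adjusted p = 0.117, 0.129 and 0.117; n = 8). Spearman's rho was 0.333, 0.429 and 0.452 (exact permutation, adjusted p = 0.770, 0.665 and 0.622). Without non-bloom 7 and 3 the r values were -0.48, -0.56 and -0.58, so the positive relation rested on those 2 dolphins. Non-bloom 5 shows the split: it ranked 3 of 17 for S100A12, S100A9 and MMP9 and 12 of 17 for CSF3R. Non-bloom 8 ranked 3 of 17 for CSF3R and 10, 10 and 8 for S100A12, S100A9 and MMP9. Among bloom dolphins r was 0.747 for S100A9 and CSF3R (exact permutation, adjusted p = 0.117; rho 0.749, exact permutation, adjusted p = 0.180; n = 9; r = 0.766 without bloom 6 and 3). It was 0.647 for CSF3R and MMP9 (exact permutation, adjusted p = 0.206; rho 0.759, exact permutation, adjusted p = 0.180; n = 9; r = 0.828 without bloom 2 and 6).

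The ratio of CSF3R to S100A12 reads shows how far single dolphins lay apart; those named here are the extremes. Non-bloom 5 had 10 reads of CSF3R against 490 of S100A12, a ratio of 0.0204 (95% exact interval 0.00973 to 0.0379), and non-bloom 8 had 39 against 90, a ratio of 0.433 (0.290 to 0.638). Over all 8 non-bloom libraries that ratio had a median of 0.139. Bloom 2 had 28 reads of CSF3R against 13 of S100A12, a ratio of 2.15 (1.08 to 4.53), and the highest CSF3R level of its season. It had 31 reads of S100A9, a ratio to S100A12 of 2.38 (1.21 to 4.97), so the high ratio there was not particular to CSF3R. The ratio of S100A9 to S100A12 reads kept within a narrower band in non-bloom libraries, 0.419 to 0.763 with a median of 0.599. In the 3 bloom libraries with at least 20 reads of S100A12 (1, 3 and 6) it was 0.685, 1.03 and 1.58. These intervals cover no more than counting error, as PCR had copied the reads.

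**Figure D2:**
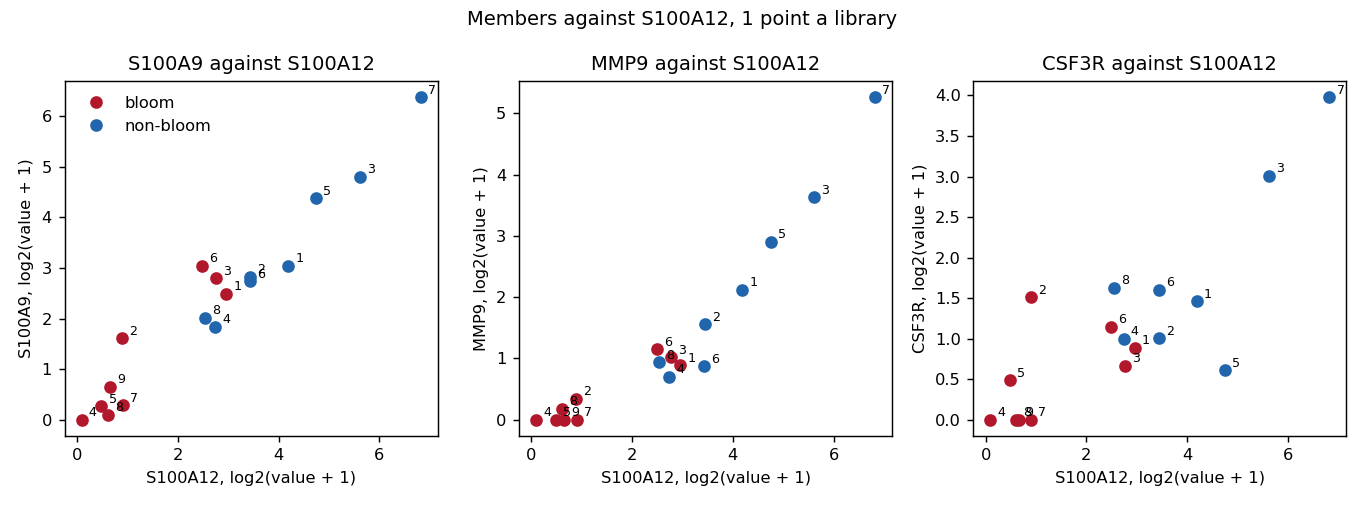
S100A9, MMP9 and CSF3R against S100A12, all on the log2(deposited value + 1) scale, with 1 numbered point a library, bloom in red and non-bloom in blue. S100A9 and MMP9 climb along 1 band with S100A12 across both seasons, while non-bloom 5 and bloom 2 lie off the trend for CSF3R. Bloom 2 is also high in S100A9 for its level of S100A12.

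S100A8, the partner of S100A9 in calprotectin, lies on the same scaffold as both S100 genes, from 11858 to 12277. Its levels in bloom libraries 1 to 9 were 2.37, 0.858, 3.59, 0, 0.199, 3.03, 0.218, 0.132 and 0.571. In non-bloom libraries 1 to 8 they were 2.23, 3.45, 12.6, 1.56, 8.39, 1.02, 19.0 and 1.07. The same 3 bloom libraries and the same 3 non-bloom libraries (3, 5 and 7) led in S100A8 as in S100A9. S100A8 averaged 1.22 ± 1.39 in bloom and 6.16 ± 6.63 in non-bloom dolphins (SD, n = 9 and 8), a log2 change of -1.41 (SE 0.48) that did not pass over all genes by limma (adjusted p = 0.0607) or edgeR (adjusted p = 0.0622) and passed by DESeq2 (adjusted p = 0.0201).

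By a measure of likeness that removes the season, S100A8 was also the gene most like the mean of the 4. Over 17 libraries, with each gene's log2 level centred on its season mean, Pearson's r with that mean was highest for S100A8 (0.94), IL1R2 (0.88), LYZ (0.87), TGM3 (0.85) and FRMD4B (0.79) among 12413 genes ranked. BIN2, LTF, HK2, IL13RA1 and VANGL2 made up the rest of the first 10, with r of 0.76 to 0.78. S100A8 was the closest gene to S100A12 (0.94), to S100A9 (0.96) and to MMP9 (0.91). The genes closest to CSF3R were CNN2 (0.89), PTPRC (0.88) and COL1A2 (0.88), and none of these 3 was among the closest genes of the others. IL1R2, a decoy receptor for interleukin-1, was at 23.6 in non-bloom 7 against a non-bloom median of 2.16, and TGM3, a transglutaminase, at 65.4 against 3.00. These coefficients describe likeness over libraries of which non-bloom 7 stands far from the rest.

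The other neutrophil genes on the lists moved in both directions. Of 54 such genes 37 were in the files, 35 had reads, and 19 passed the filter on low values. By limma 1 of the 19 was higher and 1 lower in the bloom season (4.47% and 4.69% of all genes), and 7 were lower and 1 higher at an unadjusted p under 0.05 (19.1% and 16.4% of all genes). Their log2 changes were negative in 11 and positive in 8, with a median of -0.25, against -0.0034 over all genes tested. edgeR called 1 higher and 3 lower, among them IL1R2 and SPI1, and DESeq2 2 higher and 6 lower.

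Of the oxidase that makes superoxide in phagocytes, NCF1, NCF4 and CYBA encode subunits. They had log2 changes of 0.32 (SE 0.36), -0.0018 (SE 0.19) and 0.0076 (SE 0.17) and did not pass.

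PGLYRP1, a peptidoglycan-binding protein of neutrophil granules, rose. It averaged 13.3 ± 13.7 in bloom and 1.91 ± 0.890 in non-bloom dolphins (SD, n = 9 and 8), a log2 change of 1.74 (SE 0.50, limma adjusted p = 0.0439). Its highest levels were 37.1 in bloom 9 and 35.4 in bloom 5, libraries in which S100A9, CSF3R and MMP9 rested on 3 reads or fewer. The call was kept in 5 of 17 fits with 1 library left out and lost without bloom 5, 6 and 9, where the log2 change was 0.94 (SE 0.35, limma adjusted p = 0.135).

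Among the other granule genes, MPO, ELANE and MMP8 were sparse. The azurophil granule genes MPO and ELANE, which are transcribed mainly in marrow precursors, averaged 0.242 ± 0.252 and 0.264 ± 0.251 in bloom dolphins, against 0.269 ± 0.219 and 0.296 ± 0.192 in non-bloom dolphins (SD, n = 9 and 8). MMP8, the neutrophil collagenase, averaged 0.0689 ± 0.141 in bloom and 0.387 ± 0.583 in non-bloom dolphins, and its highest level was 1.61 in non-bloom 7. LTF, which encodes the iron-binding lactoferrin of specific granules, averaged 1.09 ± 0.841 in bloom and 4.10 ± 3.73 in non-bloom dolphins (log2 change -1.06, SE 0.39, limma adjusted p = 0.0719). TREM1 and PADI4 are listed at 0 in all 17 libraries. MPO, ELANE and MMP8 did not pass the filter either.

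IL1R2, ITGAM, SPI1, CTSC, SERPINB1 and MCL1 complete the named genes of these lists. IL1R2 changed by -1.15 (SE 0.41, limma adjusted p = 0.0677), and SPI1, a transcription factor of myeloid cells, by -1.09 (SE 0.41, limma adjusted p = 0.0768). ITGAM, an integrin chain of neutrophils, monocytes and microglia, changed by -1.56 (SE 0.72, limma adjusted p = 0.131). CTSC, the protease that activates granule enzymes, changed by -0.58 (SE 0.36), SERPINB1, an inhibitor of neutrophil elastase, by 0.04 (SE 0.26), and MCL1, a survival factor, by 0.54 (SE 0.26), none of which passed.

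**Figure D3:**
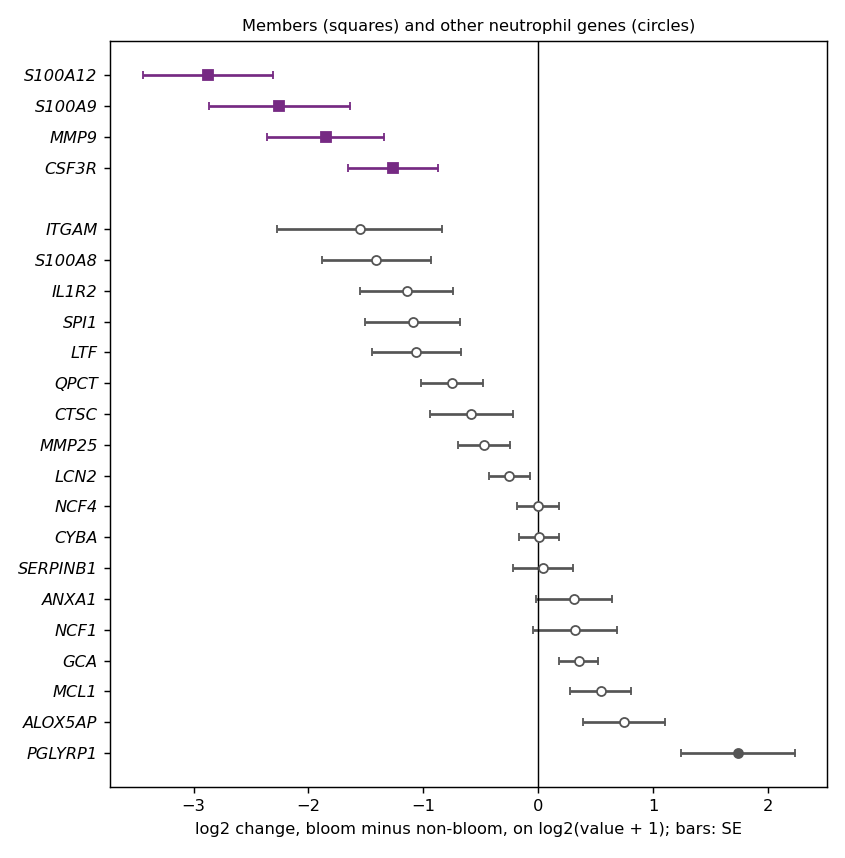
Log2 change, bloom minus non-bloom, with its SE for the 4 genes picked on this contrast (squares) and for other neutrophil genes reported here (circles, filled where limma's adjusted p was under 0.05). The 4 lie between -2.87 and -1.27, and the others spread from -1.56 for ITGAM to 1.74 for PGLYRP1; the median over all 19 tested was -0.25.

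The dolphins with the highest levels of the 4 genes also had high levels of microglial and monocyte genes. Non-bloom 3 and 7 were the 2 highest non-bloom libraries in 7 of 9 microglia genes, 5 of 7 monocyte genes and 14 of 35 other neutrophil genes (40%), against 7.11% of all genes tested. They were so too in 3 of 6 common leukocyte genes, 5 of 8 inhibitors and partners of MMP9, 3 of 6 acute-phase genes with reads and 4 of 12 other matrix metalloproteinases. Some of these lists share genes. The list counts take in every gene with a read, also those too low for the filter. The 7.11% is over the 13548 genes that passed it, so the shares stand on unlike sets. The count was 0 of 8 endothelial genes, 0 of 11 pan-neuronal genes and 0 of 9 T and NK cell genes with reads, most of which had few. CSF1R, the receptor that maintains microglia, was at 0.199 to 5.08 in bloom libraries. In non-bloom libraries it was at 96.6 in non-bloom 3, 82.2 in non-bloom 7 and 25.8 in non-bloom 8, and at 0.382 to 1.08 in the other 5. C1QB, a chain of complement C1q, was at 105, 42.3 and 39.7 in the same 3 libraries. Non-bloom 8 and non-bloom 5 part the gene groups: non-bloom 8 had the 3rd highest CSF1R with the lowest S100A12 of its season, and non-bloom 5 had the 3rd highest S100A12 with a CSF1R of 0.633.

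Summed over 9 microglia genes, levels ran from 31.5 to 81.6 in bloom and 22.2 to 278 in non-bloom libraries. The sum over 7 monocyte genes ran from 11.3 to 54.7 in bloom and 16.5 to 106 in non-bloom libraries. CX3CR1 was listed at 0 in at least 5 bloom libraries, and so was CCR2. In non-bloom libraries other than 3, 7 and 8, CX3CR1 had at most 3 reads and CCR2 at most 1. Of 24 relations between the 4 genes and other measures among non-bloom dolphins, 1 passed: the summed monocyte level and MMP9 had r = 0.873 (exact permutation, adjusted p = 0.0387, n = 8) and rho = 0.833 (exact permutation, adjusted p = 0.154), and r = 0.618 without non-bloom 3 and 7. None of 24 passed among bloom dolphins. The part of microglia and monocytes in the season difference was not tested.

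**Figure D4:**
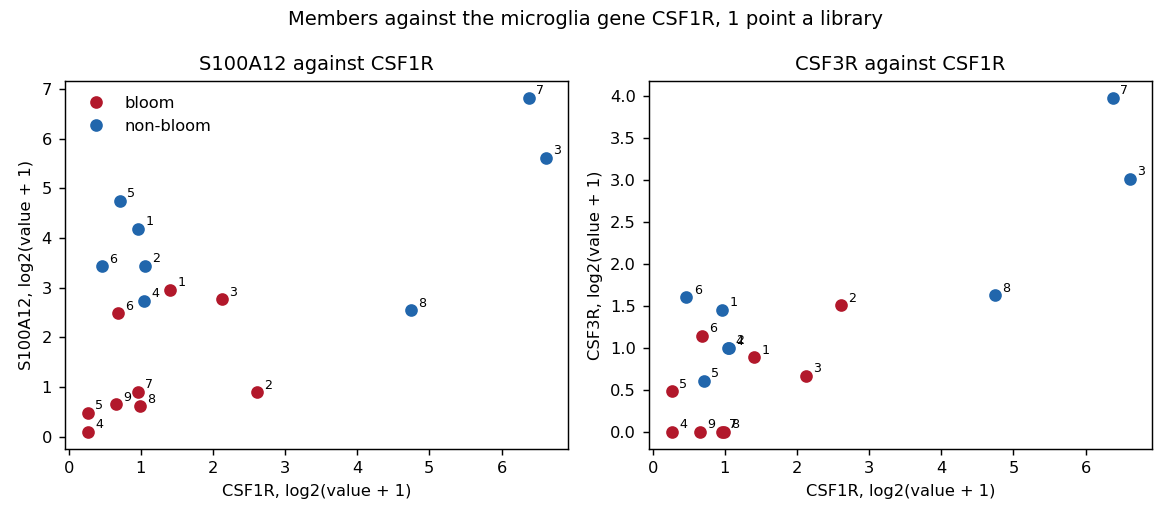
S100A12 and CSF3R against the microglial gene CSF1R, all on the log2(deposited value + 1) scale, with 1 numbered point a library, bloom in red and non-bloom in blue. Non-bloom 3 and 7 are high on both axes; non-bloom 8 is high in CSF1R with the lowest S100A12 of its season, and non-bloom 5 and 1 are high in S100A12 with low CSF1R.

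The summed level of 5 erythroid genes ran from 10.4 to 2456 in bloom and 104 to 879 in non-bloom libraries, with the highest bloom levels in bloom 9, 6 and 5. Non-bloom 7, the top library for the 4 genes, also had the highest erythroid sum of its season, and non-bloom 3 had the lowest. The sum over 8 endothelial genes ran from 169 to 2749 in bloom and 275 to 864 in non-bloom libraries. Bloom 6, with the highest S100A9 and MMP9 of its season, also had the highest endothelial sum. By limma 0 of 4 erythroid genes, 0 of 8 endothelial genes and 0 of 4 adhesion genes of endothelium passed (0, 1 and 0 at a p under 0.05 before adjustment). edgeR called 1 endothelial gene higher, and DESeq2 called 3. None of the relations of the 4 genes with the erythroid sum, the endothelial sum, the mitochondrial share or the reads outside the mitochondrial genome passed within either season (exact permutation, 60 relations).

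A few single genes on the lists of other leukocytes were also lower in the bloom season. LYZ, the lysozyme of monocytes and granulocytes, fell to 2.499 ± 1.96 in bloom dolphins, against 14.4 ± 16.0 in non-bloom dolphins (SD, n = 9 and 8; log2 change -1.69, SE 0.52, limma adjusted p = 0.0485), with 68.8% of its non-bloom sum in non-bloom 3 and 7. It was 1 of 4 monocyte genes tested to pass, and none passed without those 2 libraries. ARHGDIB, a GTPase regulator of leukocytes, fell by 0.58 on the log2 scale (SE 0.18, limma adjusted p = 0.0496), as 1 of 4 common leukocyte genes. CD3G, a chain of the T cell receptor complex, changed by -1.18 (SE 0.34, limma adjusted p = 0.0439), as 1 of 2 T and NK cell genes tested, and KIT, a receptor of mast cells that some cortical interneurons also carry, by -1.44 (SE 0.41, limma adjusted p = 0.0422). CD3D, CD3E and CD8A, the more usual T cell markers, were near absent in both seasons: they were at 0 in 7, 7 and 9 of 9 bloom libraries and in 8, 3 and 5 of 8 non-bloom libraries. None of 7 microglia genes passed by limma, and CSF1R changed by -1.64 (SE 0.84, limma adjusted p = 0.167); SALL1 was higher and P2RY12 lower at a p under 0.05 before adjustment, edgeR called CSF1R lower (adjusted p = 0.0370), and DESeq2 called 1 higher and 3 lower. Kept calls numbered 4 of 17 for LYZ, 4 for ARHGDIB, 5 for CD3G and 6 for KIT when 1 library was left out, and none of the 4 was called without non-bloom 3 and 7 or without bloom 5, 6 and 9.

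**Figure D5:**
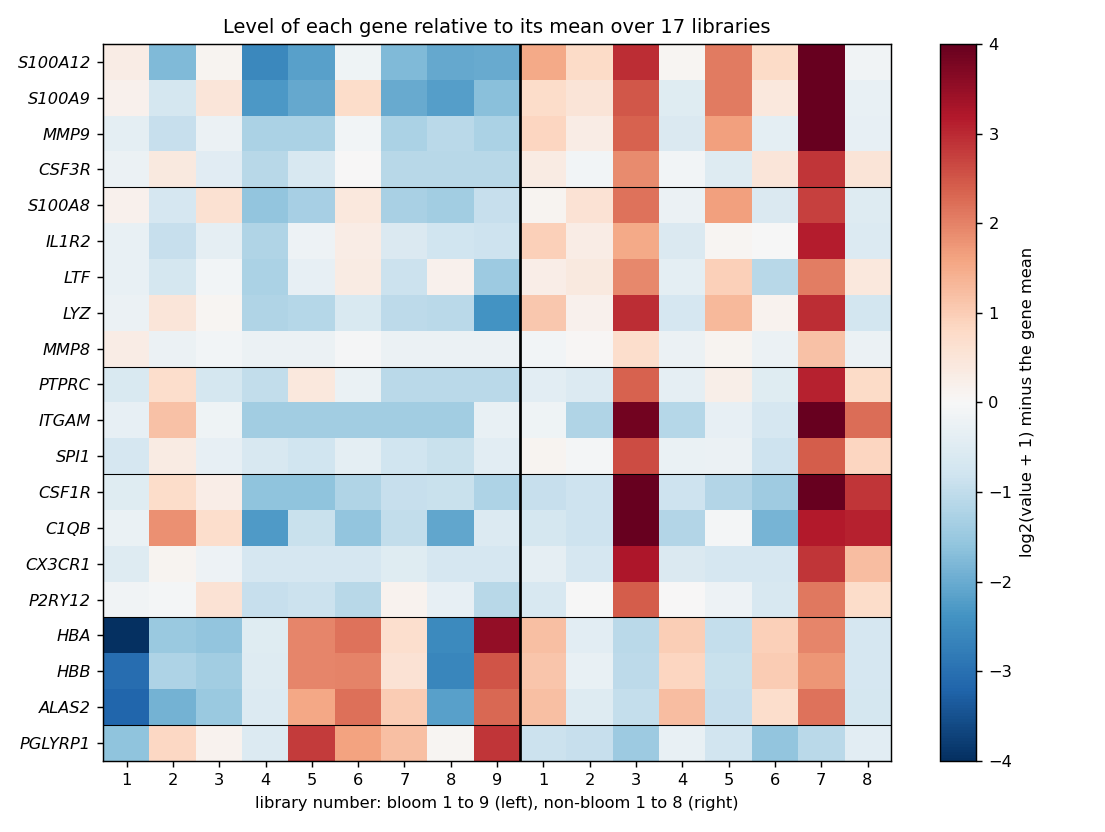
Level of selected genes in each library as log2(deposited value + 1) minus the gene's mean over 17 libraries, with bloom libraries left and non-bloom libraries right; colours saturate at 4 units either way. Non-bloom 3 and 7 are high from S100A12 to P2RY12, and non-bloom 5 is high in the S100 genes and MMP9 but not in CSF3R. The erythroid rows are highest in bloom 5, 6 and 9 and in non-bloom 7. They also lie above the gene mean in bloom 7 and in non-bloom 1, 4 and 6. PGLYRP1 is highest in bloom 5 and 9.

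The partners of the 4 genes were measured in the same libraries. AGER, a receptor to which S100A12 binds, rose: it averaged 2.31 ± 1.14 in bloom and 0.731 ± 0.466 in non-bloom dolphins (SD, n = 9 and 8; log2 change 0.91, SE 0.21, limma adjusted p = 0.0269). It was 1 of 6 receptor and adaptor genes for calprotectin and S100A12 to pass, it was kept in 11 of 17 fits with 1 library left out, and its call was lost without non-bloom 3 and 7 (limma adjusted p = 0.0732) and without bloom 5, 6 and 9 (limma adjusted p = 0.0634). TLR4, a receptor for calprotectin, changed by -0.07 (SE 0.32, limma adjusted p = 0.898).

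Other S100 genes, apart from S100A8, had changes of the opposite sign to S100A12 and S100A9. S100A8, counted above with the neutrophil genes, changed by -1.41. All 8 others tested had positive log2 changes, with a median of 1.09, against -2.87 for S100A12 and -2.25 for S100A9. S100A16 rose, with 204 ± 177 in bloom and 50.1 ± 15.0 in non-bloom dolphins (SD, n = 9 and 8; log2 change 1.54, SE 0.47, limma adjusted p = 0.0485), and was the only one called by limma; edgeR called 5 of the 8 higher. The S100A16 call was kept in 3 of 17 fits with 1 library left out. It was lost without non-bloom 3 and 7 (limma adjusted p = 0.0861) and without bloom 5, 6 and 9, where the log2 change was 0.76 (SE 0.33, limma adjusted p = 0.188). Without bloom 5, 6 and 9 the 8 changes ran from 0.25 for S100A11 to 0.90 for S100A14, and none was called.

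CSF3R signals through the kinases and STAT proteins of its list, of which JAK1 fell by 0.51 (SE 0.14, limma adjusted p = 0.0397) and STAT5B by 0.43 (SE 0.13, limma adjusted p = 0.0446) on the log2 scale, as 2 of 8 genes tested. Both were also called by edgeR, neither without non-bloom 3 and 7 or without bloom 5, 6 and 9. CSF3, the ligand of CSF3R, averaged 0.799 ± 0.518 in bloom and 0.459 ± 0.669 in non-bloom dolphins (SD, n = 9 and 8; log2 change 0.34, SE 0.23, limma adjusted p = 0.287). It was 1 of 3 attractant and growth factor genes tested, none of which passed by limma (1 higher at an unadjusted p under 0.05) or edgeR, while DESeq2 called 1 higher and 1 lower; CSF2 and IL17A are listed at 0 in all 17 libraries.

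Of the other matrix metalloproteinases 7 were tested and none passed by limma, edgeR or DESeq2 (1 lower at an unadjusted p under 0.05). MMP2, the other gelatinase, averaged 23.0 ± 12.1 in bloom and 15.7 ± 10.7 in non-bloom dolphins (SD, n = 9 and 8; log2 change 0.61, SE 0.31, limma adjusted p = 0.163). Among 8 inhibitors and partners of MMP9 none passed by limma or edgeR, and before adjustment 4 had a p under 0.05 with a higher level and 1 with a lower level; DESeq2 called 3 higher and 1 lower. TIMP1, an inhibitor that forms a complex with MMP9, averaged 24.4 ± 15.2 in bloom and 10.4 ± 6.01 in non-bloom dolphins (SD, n = 9 and 8; log2 change 1.12, SE 0.41, limma adjusted p = 0.0749).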

How the data were processed

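Per the labels, about 100 mg of cortex was extracted, 600 ng of RNA went into each messenger RNA library, and PCR ran for 14 cycles. Reads were trimmed with Trim Galore 0.6.1 and aligned with STAR 2.5.2a, going by the tools named in the submitters' processing notes; for the counter, build and annotation, no name was given in the sources used here. The authors deposited 1 normalised signal value per gene and library. All nonzero values were whole multiples of the value of 1 read (100% within 0.01, largest deviation 0.000236), and the scaling equalled that of the trimmed mean of M values (TMM), so the deposited signal is TMM-scaled CPM and the reads were recovered. No library matched another of its season within sampling noise (lowest chi-square 17.7 per gene).

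Genes were filtered by filterByExpr (minimum count 10, total 15) and 13548 tested by limma-trend, with season alone in the model, on log2(value + 1). The plan named edgeR for counts and limma-trend for normalised values; edgeR and DESeq2 on recovered reads were alternatives. Steps were tested on simulated data. Software was limma 3.58.1, edgeR 4.0.16 and DESeq2 1.42.0 in R 4.3.3. The 4 members and the 23 lists (222 genes, 168 in the files) were chosen with earlier results of these data known. Named genes are the members, called genes of each neutrophil list or else the 4 with the smallest p, 3 of each other list, and the genes most alike. S100A8, LTF, MPO, ELANE, MMP8, NCF1, NCF4, CYBA, C1QB, TLR4, CCR2 and CX3CR1 were named besides, after their values were seen. Leaving out non-bloom 3 and 7, alone or with bloom 5, 6 and 9, was chosen after seeing the data. Some genes of the lists are not reported here; they stay in every fit and count.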

Additional observations from a re-analysis of the deposited data

Results flagged for a closer look

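Among 16 sets of values checked, each a gene or summed list within a season, 5 had a library set far apart from the others of its season. The gaps were taken on the deposited values, not on the log2 scale, where they were not checked. The rule flags about 1 in 20 sets by chance if values are normally distributed, a rate that need not hold for skewed levels like these. Non-bloom 7 stood apart in all 4 neutrophil genes. S100A12 was at 112.2 there, with the nearest library at 48.04, a gap of 0.597 of the whole range. S100A9 was at 82.1 with the nearest at 26.97 (0.693 of the range), CSF3R at 14.77 with the nearest at 7.065 (0.541), and MMP9 at 37.37 with the nearest at 11.36 (0.708). The nearest library was non-bloom 3 each time, and the critical gap for 8 libraries is 0.526. These 4 values come from the same library and are not independent of each other.

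The summed level of 5 erythroid genes in bloom 9 was 2456, with the nearest bloom library, bloom 6, at 1013 (a gap of 0.59 of the range, critical gap 0.493 for 9 libraries). S100A9 rested on 1 read in bloom 9, and CSF3R and MMP9 on none.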

How the results depend on the processing

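No paired analysis was possible because the labels give each dolphin a number of its own and no number shared between seasons. No log2 change of the 4 genes turned direction in any setting run. With 1 library left out the changes ran from -3.11 to -2.499 for S100A12, -2.492 to -1.843 for S100A9, -1.433 to -0.952 for CSF3R and -2.071 to -1.419 for MMP9. CSF3R was at -2.74 by DESeq2, -2.67 by edgeR, -2.881 by limma-voom with quality weights and -2.688 with a pseudocount of 0.1, and MMP9 at -4.287, -4.189, -3.271 and -3.533 in the same order; a pseudocount of 1 shrinks such low levels by construction. The 1241 genes called over all genes became 3170 by DESeq2, 4123 by limma-voom, 560 with no filter, 547 with levels scaled to reads outside the mitochondrial genome, 320 without bloom 5, 6 and 9, 53 without non-bloom 3 and 7, 104 without all 5, and 61 to 2895 with 1 library left out; apart from fewer libraries, the cause was not tested. The 2 other neutrophil genes called became 8 by DESeq2, 4 by edgeR, 1 without bloom 5, 6 and 9, 1 without non-bloom 3 and 7, 0 without all 5 (limma), and 1 to 4 with 1 library left out. MMP9 did not enter the filter of a value of at least 1 in at least 8 libraries. CSF3R had no read in 4 of 9 bloom libraries. Reads outside the mitochondrial genome numbered 11154509 in bloom 4, 9945880 in bloom 7, 11607539 in bloom 8 and 1753299 in bloom 9. Non-bloom libraries had 10055301 to 14121524. The part of depth in these zeros was not tested.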
